A study of Homo sapiens with 8 samples.

Results

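The 35 genes described here are those of glycolysis and of the hypoxia response, taken from the count table by gene symbol. All 35 symbols were found among 57445 gene entries. They comprise 18 glucose transporters, glycolytic enzymes and their regulators, and 17 further genes of the hypoxia-inducible factor (HIF) axis. A minimum mean of 10 reads over the 8 libraries was passed by 34 of them, out of 15806 genes tested. The exception was CA9, a membrane carbonic anhydrase known as a hypoxia marker, which had 0 to 3 reads in a library.

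RNA on ribosomes was sequenced from MDA231-BrM2, a brain-seeking derivative of the breast carcinoma line MDA-MB-231. The method, translating ribosome affinity purification (TRAP), uses anti-GFP beads to capture the carcinoma cells' tagged polysomes from a lysate that also holds astrocytes. In 3 groups the carcinoma cells had been kept with astrocytes for 24 h at 1 astrocyte per carcinoma cell: cells with hairpin 1 against connexin 43, cells with hairpin 2 against it, and cells with a control hairpin, called the control coculture. Connexin 43 (Cx43), the product of GJA1, forms gap junctions. Cells with the control hairpin were also grown alone. Each group had 2 libraries, which the series text describes as independent, and all 4 groups used 1 line grown in the same serum-containing medium. Cx43-depleted cells without astrocytes were not analysed here. Neither the astrocytes' species nor the oxygen tension is given in the sources used here.

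Cells adapt to low oxygen through HIF. Prolyl hydroxylases of the EGLN family mark the alpha subunits HIF1A and EPAS1 (HIF-2 alpha) for destruction when oxygen is present, and the stabilised subunits pair with ARNT and bind short DNA motifs near target genes. Those targets include most glycolytic genes, the angiogenic factor VEGFA and enzymes that mature collagen. Carcinoma cells often run glycolysis at a high rate even in oxygen, so these genes are among the most abundant messages of such lines.

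Upstream sequence is shown for 3 genes on which the results turn: PFKFB4, which had the largest called rise, DDIT4, a further called rise, and PKM, an abundant enzyme gene lower after Cx43 depletion. The sequences are from RefSeq (build GRCh38.p14), run 5′ to 3′ on the gene's strand and cover the 250 bases before the annotated start. Capitals mark the HIF core motifs ACGTG and GCGTG, searched on both strands.
PFKFB4, chr3:48556804-48557053, minus strand: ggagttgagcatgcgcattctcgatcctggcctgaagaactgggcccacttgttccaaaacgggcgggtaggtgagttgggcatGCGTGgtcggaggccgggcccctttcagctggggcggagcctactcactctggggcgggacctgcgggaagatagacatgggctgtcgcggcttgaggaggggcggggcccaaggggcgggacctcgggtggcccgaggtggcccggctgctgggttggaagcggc
DDIT4, chr10:72273674-72273923, plus strand: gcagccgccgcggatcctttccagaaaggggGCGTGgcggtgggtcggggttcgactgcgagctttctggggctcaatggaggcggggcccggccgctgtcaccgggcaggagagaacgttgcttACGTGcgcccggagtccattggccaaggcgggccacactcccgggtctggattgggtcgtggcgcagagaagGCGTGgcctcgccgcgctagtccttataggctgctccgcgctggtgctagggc
PKM, chr15:72231191-72231440, minus strand: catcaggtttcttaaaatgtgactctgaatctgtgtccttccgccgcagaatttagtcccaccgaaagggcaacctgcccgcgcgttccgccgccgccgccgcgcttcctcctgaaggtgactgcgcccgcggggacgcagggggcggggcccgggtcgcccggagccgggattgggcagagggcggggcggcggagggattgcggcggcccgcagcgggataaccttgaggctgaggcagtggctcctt
The PFKFB4 window held 1 match, the DDIT4 window 3 and the PKM window 0. RefSeq windows were matched for 31 of the 35 genes, some with several starts, which gave 51 windows. Of these, 35 (68.6%) held either motif, against 43.2% of all 35116 windows. ACGTG read on both strands at once is the E-box CACGTG, which 8 of the 51 windows held (15.7%) and 6.34% of all windows. VEGFA, SLC2A3, NDRG1 and LOXL2 were not matched. A match is a run of letters and says nothing of whether a factor binds there.

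Reads counted in genes ranged from 38219702 to 48997555 per library. Levels are in CPM, reads per 1000000 reads of a library's gene total after TMM scaling, and 3 reads correspond to 0.0624 to 0.0805 CPM. GJA1 was at 27.8 and 27.8 CPM with hairpin 1 and 31.7 and 33.8 CPM with hairpin 2, against 65.9 and 64.6 CPM in the control coculture. Its log2 change over both hairpins was -1.11 (SE 0.061, adjusted p = 7.89e-06). The line's mesenchymal markers (VIM, CD44, EGFR, AXL, CAV1 and MSN) summed to 3955 to 4969 CPM in a library, and ESR1, PGR, CDH1 and ERBB3, which it is known to lack or hold low, to 2.89 to 4.88 CPM. Because each library is a bulk pull-down, fewer cells of a type and less RNA per cell cannot be told apart.

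The genes spanned a wide range of levels. Scaled for exon length (GENCODE 29), GAPDH led at 571 CPM per kilobase in control cells alone, followed by TPI1 at 242, ENO1 at 152, ALDOA at 135, LDHA at 130 and PKM at 86.9 CPM per kilobase. Isozymes differed in length-scaled level within 1 reaction. In control cells alone ALDOA stood at 135 and ALDOC at 0.217 CPM per kilobase, ENO1 at 152 and ENO2 at 3.63, HK1 at 19.8 and HK2 at 10.2, and PFKFB3 at 17.3 and PFKFB4 at 1.23 CPM per kilobase. The glucose transporter SLC2A1 stood at 20.3 and SLC2A3 at 5.35 CPM per kilobase. These lengths come from a later annotation than the counts, so the order is approximate. In GENCODE 29, 14 of the 35 genes have pseudogenes named after them, 62 for GAPDH, and reads that fit several places were not counted. Such reads made up 16.8% to 26.1% of a library's total in the control coculture, 18.5% to 21.5% with the hairpins and 14.2% to 16.4% in control cells alone, and their part in the results was not tested. For 18 of the 35, exons of another gene lie on the opposite strand, GAPDH, HIF1A, DDIT4, VEGFA and P4HA2 among them, and without a stated strand setting those reads cannot be told apart.

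**Figure D1:**
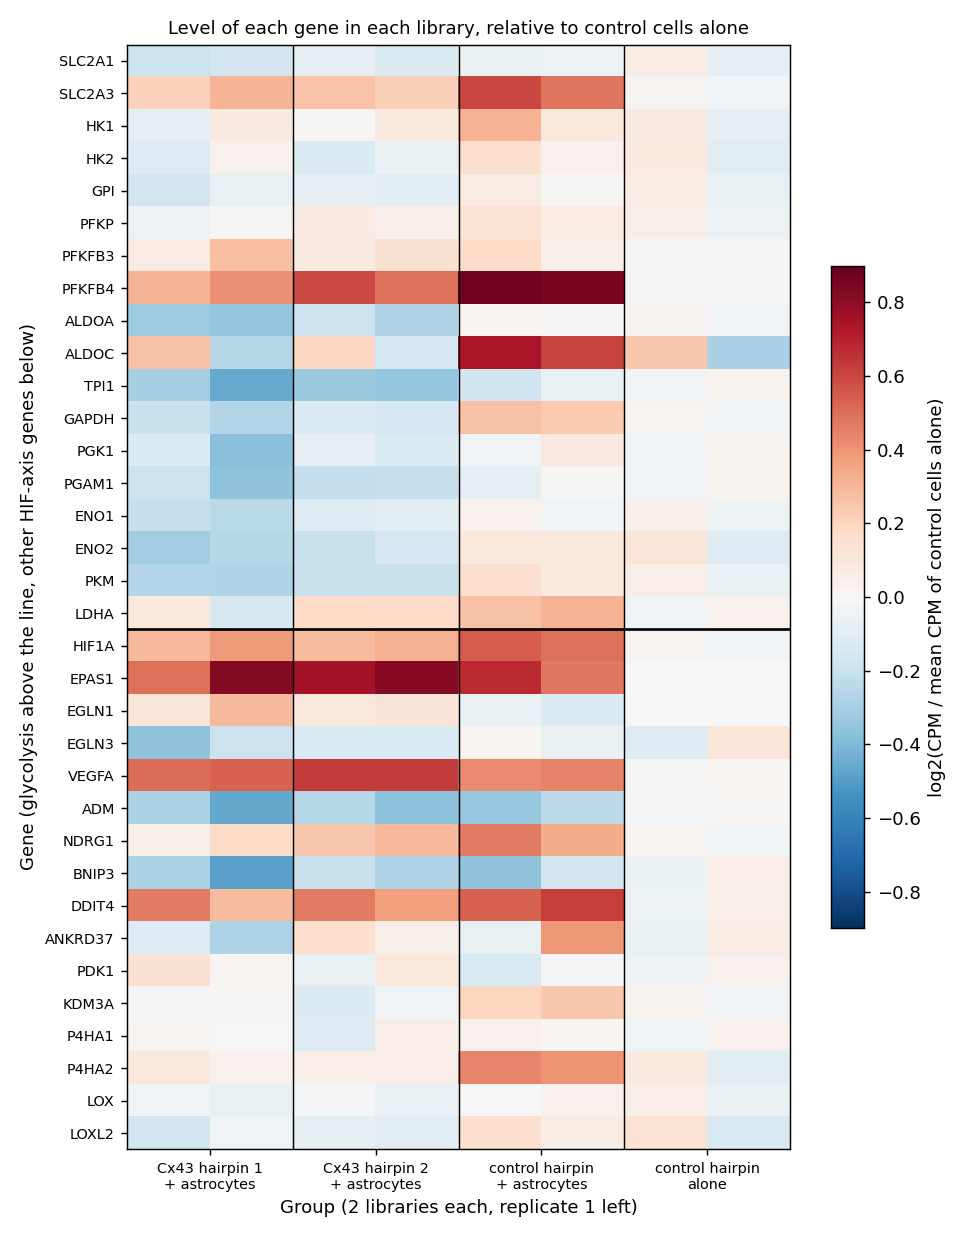
Heat map of the 34 tested genes (rows; glycolysis above the line, other HIF-axis genes below) in each library (columns; Cx43 hairpin 1 and 2 with astrocytes, control coculture, control cells alone). Colour is log2 of CPM over the mean CPM of control cells alone. PFKFB4 is darkest red in the control coculture, and it, VEGFA, EPAS1, HIF1A, DDIT4 and SLC2A3 are among the genes red in all 6 cocultures.

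The control coculture was compared with control cells alone to ask how these messages differ when astrocytes are present. Several regulators and 1 of the 2 glucose transporters listed rose, while most of the pathway's enzymes did not pass the test. The largest rise was that of PFKFB4, a bifunctional enzyme that sets fructose 2,6-bisphosphate and thereby the pace of phosphofructokinase, at 1.81-fold. It was followed among the called genes by DDIT4 and EPAS1 (both 1.49-fold), SLC2A3 (1.45-fold) and HIF1A (1.43-fold). In all 9 of 34 genes rose and 0 fell at an adjusted p under 0.05, against 8.74% higher and 2.93% lower, 11.7% in all, of the 15806 genes tested. With DESeq2 the counts were likewise 9 and 0, where 1257 of all 15806 genes were higher and 514 lower. At an unadjusted p under 0.05, in either direction, edgeR had 14 of the 34 genes and 4288 of all 15806. DESeq2 had 12 of the 34, and its count over all genes at that threshold was not taken.

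Among the 18 glycolysis genes 3 rose, and their median log2 change was 0.10, against -0.003 over all genes tested. PFKFB4 was at 13.7 and 13.5 CPM in the control coculture, against 7.60 and 7.46 CPM in control cells alone. The log2 change was 0.86 (SE 0.084, adjusted p = 0.000299), with replicates close together and groups well apart. SLC2A3, which encodes the high-affinity glucose transporter GLUT3, was at 49.9 and 46.0 CPM in the control coculture, against 33.6 and 32.4 CPM in control cells alone, a log2 change of 0.54 (SE 0.073, adjusted p = 0.00197). SLC2A1, the GLUT1 transporter of most carcinoma cells, was at 92.4 and 92.5 CPM in the control coculture and within the range of control cells alone, 101 and 91.4 CPM (log2 change -0.06, 95% interval -0.21 to 0.10).

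GAPDH, the glyceraldehyde 3-phosphate dehydrogenase often used as a reference gene, was at 2047 and 2005 CPM in the control coculture, against 1730 and 1674 CPM in control cells alone. Its log2 change of 0.25 passed (SE 0.064, adjusted p = 0.0367), but the call ended without either library of the control coculture (adjusted p = 0.199 and 0.129), of control cells alone (0.142 and 0.226) or of hairpin 2 (0.0943 and 0.0952). LDHA, which turns pyruvate into lactate, was at 968 and 1000 CPM in the control coculture, against 784 and 829 CPM in control cells alone. Its groups did not overlap, yet the change of 0.29 did not pass (adjusted p = 0.0651). The isozyme ALDOC, also an astrocyte-enriched gene, was at 1.05 and 0.966 CPM in the control coculture, above its 0.750 and 0.520 CPM in control cells alone, without passing (0.68, 95% interval 0.07 to 1.28, adjusted p = 0.142). The enzymes HK1, HK2, GPI, PFKP, ALDOA, TPI1, PGK1, PGAM1, ENO1, ENO2 and PKM and the regulator PFKFB3 had log2 changes between -0.12 (TPI1) and 0.21 (HK1), none of them called.

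Of the 16 tested HIF-axis genes outside glycolysis 6 rose, with a median log2 change of 0.14. Both HIF alpha subunits were among them. HIF1A was at 209 and 203 CPM in the control coculture, against 146 and 141 CPM in control cells alone, a log2 change of 0.52 (SE 0.064, adjusted p = 0.00112). EPAS1 was at 80.9 and 70.6 CPM in the control coculture, against 50.9 and 50.7 CPM in control cells alone, a log2 change of 0.58 (SE 0.11, adjusted p = 0.0119). DDIT4, an inhibitor of mTORC1 induced by hypoxia and other stresses, was at 185 and 197 CPM in the control coculture, against 123 and 133 CPM in control cells alone (0.58, SE 0.082, adjusted p = 0.00249). VEGFA reached 170 and 173 CPM in the control coculture, against 125 and 128 CPM in control cells alone (0.43, SE 0.059, adjusted p = 0.00197). In each of these genes every control coculture library was above every library of control cells alone. How many of all genes tested separated in this way was not counted.

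The other called rises were smaller. NDRG1, a stress-induced metastasis suppressor gene, was at 96.3 and 87.8 CPM in the control coculture, against 70.8 and 68.3 CPM in control cells alone (0.40, SE 0.073, adjusted p = 0.00899). P4HA2, a subunit of the collagen prolyl 4-hydroxylase, was at 20.0 and 19.6 CPM in the control coculture, against 15.7 and 13.9 CPM in control cells alone (0.42, SE 0.082, adjusted p = 0.0124). The calls of PFKFB4, SLC2A3, HIF1A, DDIT4 and VEGFA held when each of the 8 libraries was left out in turn. EPAS1 lost its call, with adjusted p = 0.0826, without library 1 of the control coculture, and with 0.0759 and 0.0678 without library 1 or 2 of control cells alone. NDRG1 did so without the same 3 libraries (adjusted p = 0.0761, 0.0504 and 0.0673). The call of P4HA2 ended without either control coculture library (adjusted p = 0.0823 and 0.0558) and without library 2 of control cells alone (0.0913). The count of rises was then 5 without library 2 of control cells alone and 5 without library 1 of the control coculture.

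Several classical HIF targets did not share these rises. ADM, which encodes the vasodilator peptide adrenomedullin, was at 33.4 and 35.9 CPM in the control coculture, below its 42.1 and 42.7 CPM in control cells alone, without passing (-0.29, adjusted p = 0.0564). BNIP3, a mitophagy receptor, was at 70.1 and 80.3 CPM in the control coculture, against 86.4 and 93.9 CPM in control cells alone (-0.26, adjusted p = 0.114). The hydroxylases EGLN1 and EGLN3, the mitochondrial kinase PDK1, which inhibits pyruvate dehydrogenase, the histone demethylase KDM3A, the collagen enzyme P4HA1, the cross-linking oxidases LOX and LOXL2 and the ankyrin-repeat gene ANKRD37 lay between -0.09 (EGLN1) and 0.22 (KDM3A) with no call.

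**Figure D2:**
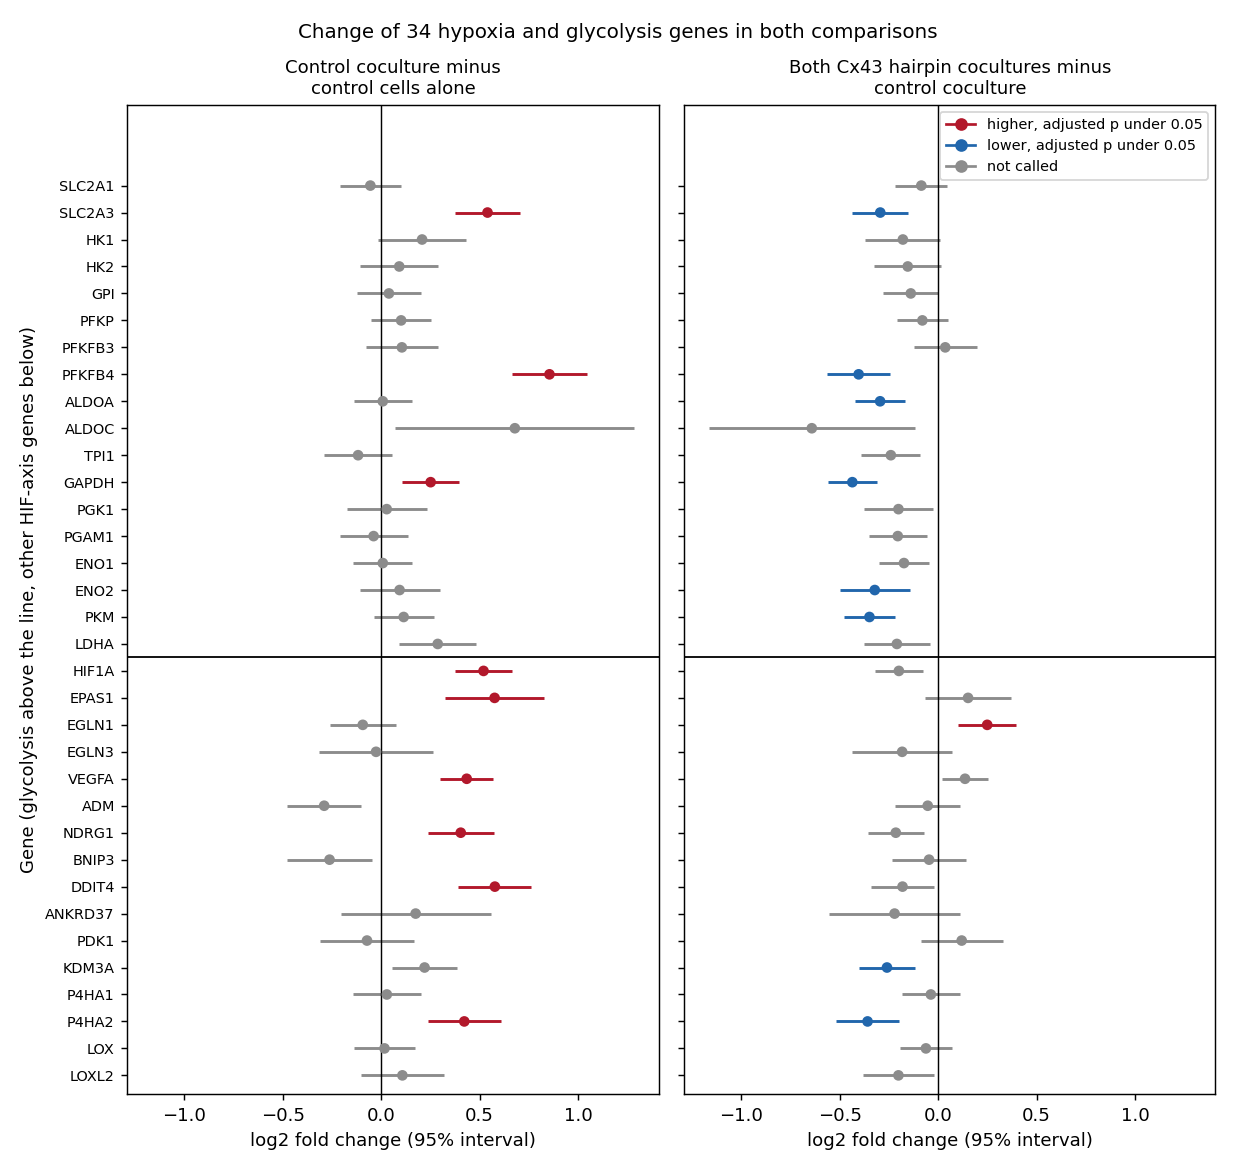
Log2 fold changes (points) with 95% intervals (lines) for the 34 tested genes, in the control coculture minus control cells alone (left) and in both Cx43 hairpin cocultures minus the control coculture (right). Red and blue mark higher and lower calls at an adjusted p under 0.05: 9 red and 0 blue on the left, 1 red and 8 blue on the right; both panels use the control coculture libraries.

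The question for the Cx43-depleted cocultures was whether these messages differ from those of the control coculture when the carcinoma cells hold less Cx43. Several glycolytic genes were lower. Over both hairpins 6 of 18 glycolysis genes fell and 0 rose, with a median log2 change of -0.21, against -0.008 over all genes tested. The median was -0.26 with hairpin 1 and -0.18 with hairpin 2. Of the 16 other HIF-axis genes 2 fell and 1 rose, with a median of -0.12. Together these were 8 falls and 1 rise among 34, where 5.85% of all tested genes were lower and 3.37% higher, 9.22% in all. Scaled by library totals alone, 5 genes fell and 1 rose, where 699 of all genes were lower and 786 higher, against 924 lower and 533 higher with TMM. This comparison shares its control coculture libraries with the one above, so the changes in each are not independent of the other.

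GAPDH had the lowest p of the 34. It was at 1478 and 1417 CPM with hairpin 1 and 1562 and 1535 CPM with hairpin 2, against 2047 and 2005 CPM in the control coculture. The log2 change was -0.44 (SE 0.054, adjusted p = 0.00195), and it was the only 1 of the 9 calls that held without each library in turn. PKM, which encodes pyruvate kinase M, was at 619 and 617 CPM with hairpin 1 and 647 and 649 CPM with hairpin 2, against 821 and 791 CPM in the control coculture (-0.35, SE 0.057, adjusted p = 0.00822). ALDOA, the main aldolase isozyme of muscle and of most tumour cells, was at 420 and 412 CPM with hairpin 1 and 461 and 436 CPM with hairpin 2, against 536 and 523 CPM in the control coculture (-0.29, SE 0.055, adjusted p = 0.0143). For these 3 enzymes all 4 depleted libraries lay below both control coculture libraries, a separation that was not counted over all genes tested.

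PFKFB4 and SLC2A3, raised in the control coculture, were lower in the depleted ones. PFKFB4 was at 9.32 and 9.99 CPM with hairpin 1 and 11.3 and 10.6 CPM with hairpin 2, against 13.7 and 13.5 CPM in the control coculture (-0.40, SE 0.070, adjusted p = 0.0103). SLC2A3 was at 38.0 and 40.8 CPM with hairpin 1 and 39.4 and 38.2 CPM with hairpin 2, against 49.9 and 46.0 CPM in the control coculture (-0.29, SE 0.062, adjusted p = 0.0233). ENO2, the enolase isozyme of neurons that carcinoma lines also express, was at 12.5 and 13.1 CPM with hairpin 1 and 13.5 and 14.0 CPM with hairpin 2, against 16.7 and 16.5 CPM in the control coculture (-0.32, SE 0.078, adjusted p = 0.0374). Of the 12 glycolysis genes without a call, 11 had a change below 0, from ALDOC (-0.64, 95% interval -1.17 to -0.12, adjusted p = 0.121) and TPI1 (-0.24, adjusted p = 0.0556) to PFKP (-0.08). LDHA was at -0.21 (adjusted p = 0.114). The exception, PFKFB3, was at 0.04 (95% interval -0.12 to 0.20).

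Among the HIF-axis genes P4HA2 was at 15.8 and 15.2 CPM with hairpin 1 and 15.4 and 15.5 CPM with hairpin 2, against 20.0 and 19.6 CPM in the control coculture (-0.36, SE 0.070, adjusted p = 0.0170). KDM3A fell by 0.26 (SE 0.063, adjusted p = 0.0382). It was at 18.6 and 18.9 CPM with hairpin 1 and 17.2 and 18.4 CPM with hairpin 2, against 21.5 and 22.3 CPM in the control coculture. The rise was that of EGLN1 (PHD2), the main oxygen-dependent hydroxylase of HIF alpha. Its level was 113 and 129 CPM with hairpin 1 and 112 and 114 CPM with hairpin 2, against 101 and 96.3 CPM in the control coculture (0.25, SE 0.065, adjusted p = 0.0468).

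VEGFA and EPAS1, raised in the control coculture, were not lower in the depleted cocultures. VEGFA was at 180 and 183 CPM with hairpin 1 and 196 and 196 CPM with hairpin 2, against 170 and 173 CPM in the control coculture. Every depleted library was higher, but the change of 0.14 did not pass (95% interval 0.02 to 0.25, adjusted p = 0.133). EPAS1 was at 71.7 and 90.2 CPM with hairpin 1 and 85.5 and 89.5 CPM with hairpin 2, overlapping the 80.9 and 70.6 CPM of the control coculture (0.15, 95% interval -0.07 to 0.37). HIF1A was at 176 and 187 CPM with hairpin 1 and 175 and 179 CPM with hairpin 2, against 209 and 203 CPM in the control coculture, just short of the threshold (-0.20, adjusted p = 0.0550). DDIT4 (-0.18, adjusted p = 0.144) and NDRG1 (-0.22, adjusted p = 0.0685) did not pass over both hairpins either. The rest of the HIF-axis genes had changes between -0.22 (ANKRD37) and 0.12 (PDK1) without a call.

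**Figure D3:**
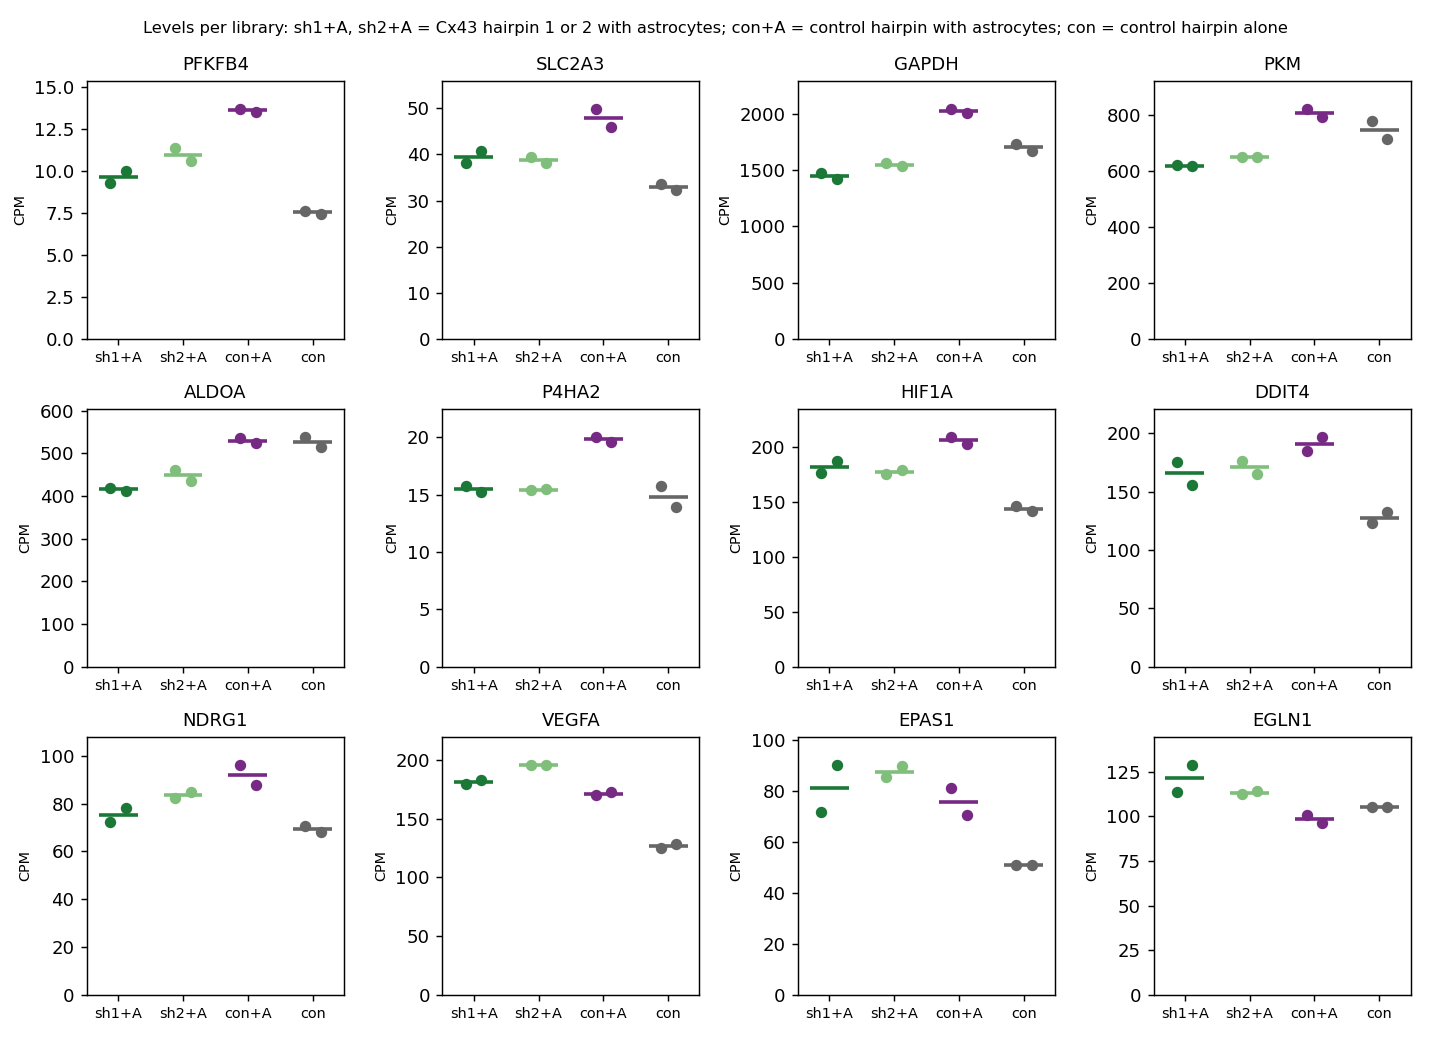
CPM of 12 genes in each library (points; horizontal lines are means of 2), for Cx43 hairpin 1 and hairpin 2 with astrocytes (sh1+A, sh2+A), the control coculture (con+A) and control cells alone (con), on axes that start at 0. PFKFB4 and SLC2A3 are highest in con+A, PKM and ALDOA are lower in both hairpin groups than in either control group, and VEGFA is lowest in con.

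Taken singly, hairpin 1 gave 7 falls and 1 rise among the 34 (4.73% lower and 3.09% higher, 7.82% in all, of the genes tested) and hairpin 2 gave 3 falls and 0 rises (3.20% lower and 0.962% higher, 4.16% in all). GAPDH fell with either hairpin (-0.48, adjusted p = 0.00344 with hairpin 1 and -0.39, adjusted p = 0.0119 with hairpin 2), as did PKM (-0.38, adjusted p = 0.0138 and -0.31, adjusted p = 0.0370) and P4HA2 (-0.36, adjusted p = 0.0359 and -0.36, adjusted p = 0.0469). PFKFB4, ALDOA, ENO2 and NDRG1 passed as falls and EGLN1 as a rise with hairpin 1. The test of hairpin 2 against hairpin 1 called 0 of 34 genes with edgeR and 0 with DESeq2, where edgeR called 5 of all 15806 (0.0316%; 0.0253% higher and 0.00633% lower). At an unadjusted p under 0.05 DESeq2 had 0 of the 34, with its count over all genes not taken. At that threshold edgeR had 1 of the 34, where it had 1084 of all 15806 genes. That 1 was LDHA, at 911 and 910 CPM with hairpin 2 and 862 and 728 CPM with hairpin 1 (0.20, 95% interval 0.0005 to 0.39, adjusted p = 0.705). The interval of the hairpin difference was -0.002 to 0.37 for PFKFB4, so these data leave room for a fall that differs in size between the hairpins.

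The count of calls changed with the libraries in the fit, and the calls over all genes tested rose or fell with it in each fit given here. The cause of these shifts was not tested. A left-out library leaves 1 in its group. The 8 falls over both hairpins became 1 (GAPDH) without either library of the control coculture, 3 without library 1 of hairpin 2 and 1 without library 2 of hairpin 2. The highest adjusted p over these left-out libraries was 0.0756 for PKM, 0.0850 for PFKFB4, 0.104 for ALDOA, 0.113 for P4HA2, 0.168 for SLC2A3, 0.186 for ENO2, 0.243 for KDM3A and 0.234 for EGLN1, whose call held only without library 1 or library 2 of hairpin 1. Hairpin 1 had 1 fall in place of 7, that of GAPDH, without either library of the control coculture, 3 without either library of hairpin 2, and 0 when its 2 libraries and the 2 of the control coculture were fitted on their own (adjusted p = 0.0697 for GAPDH). Hairpin 2 had 0 falls in place of 3 without either library of the control coculture or of hairpin 2, 1 without library 2 of control cells alone, and 7 and 6 falls without library 1 or 2 of hairpin 1.

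Depleted cocultures were also set against control cells alone. These groups differ in both astrocytes and hairpin, whose parts cannot be told apart. Here 6 of the 34 genes were called higher and 7 lower, against 10.8% and 6.34% (17.1% in all) of the genes tested. VEGFA averaged 188 CPM over both hairpins against 127 CPM in control cells alone (0.57, SE 0.052, adjusted p = 0.000415), and EPAS1 84.2 against 50.8 CPM (0.73, SE 0.098, adjusted p = 0.00267). These 2 calls held without each library in turn. PFKFB4 (0.45, adjusted p = 0.00629), SLC2A3 (0.25, adjusted p = 0.0323), HIF1A (0.32, adjusted p = 0.00795) and DDIT4 (0.40, adjusted p = 0.00902) were higher as well, but each lost its call without either library of control cells alone. SLC2A3 also lost its call without either library of hairpin 2. In all these fits fewer of all genes tested were called higher too.

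The 7 genes called lower against control cells alone were 5 of glycolysis and 2 HIF targets. TPI1, the triose phosphate isomerase, was at 532 and 477 CPM with hairpin 1 and 518 and 514 CPM with hairpin 2, against 638 and 669 CPM in control cells alone (-0.36, SE 0.065, adjusted p = 0.00947). PGAM1, a phosphoglycerate mutase, was at 108 and 96.0 CPM with hairpin 1 and 107 and 107 CPM with hairpin 2, against 121 and 127 CPM in control cells alone (-0.24, adjusted p = 0.0356). ALDOA (-0.29, adjusted p = 0.0114), PKM (-0.23, adjusted p = 0.0267) and GAPDH (-0.18, adjusted p = 0.0499) were lower too. ADM was at 34.8 and 30.7 CPM with hairpin 1 and 35.4 and 32.8 CPM with hairpin 2, against 42.1 and 42.7 CPM in control cells alone (-0.34, adjusted p = 0.0147). BNIP3 was at 74.1 and 64.4 CPM with hairpin 1 and 78.5 and 74.6 CPM with hairpin 2, against 86.4 and 93.9 CPM in control cells alone (-0.31, adjusted p = 0.0339). All 7 lost their calls without either library of control cells alone and without library 2 of hairpin 2. In those fits fewer of all genes tested were called lower as well. GAPDH, PGAM1 and BNIP3 also lost theirs without library 1 of hairpin 2 and without library 2 of hairpin 1, and PKM without the former. The call of GAPDH ended without either library of the control coculture as well.

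Further genes of the same pathways, which were not among the 35, were set against the same shares of all genes tested (8.74% higher and 2.93% lower in the control coculture, 3.37% higher and 5.85% lower over both hairpins). Of 29 tested glycolysis and pyruvate genes 4 rose (13.8%) and 1 fell (3.45%) in the control coculture against control cells alone (median 0.02), led by the glucose transporter gene SLC2A12 (1.83, adjusted p = 0.000888). Over both hairpins 0 rose and 4 fell (13.8%; median -0.10), again with SLC2A12 first (-1.40, adjusted p = 0.00189). SLC2A12 averaged 2.05 CPM over both hairpins, against 5.39 CPM in the control coculture, and 1.51 CPM in control cells alone. Of 43 tested further HIF-axis genes 10 rose (23.3%) and 2 fell (4.65%) in the control coculture against control cells alone (median 0.002), with rises in BHLHE40, a circadian repressor (1.83, adjusted p = 6.89e-07), ANGPTL4, a secreted inhibitor of lipoprotein lipase (1.17, adjusted p = 2.17e-05), and CCNG2, an atypical cyclin (0.66, adjusted p = 0.000347), and a fall in CITED2, which competes with HIF1A for its coactivator (-0.62, adjusted p = 0.000275). Over both hairpins 2 rose (4.65%) and 9 fell (20.9%; median -0.08), including BHLHE40 (-0.49, adjusted p = 0.00127) and the secreted glycoprotein gene STC2 (-0.51, adjusted p = 0.00297). The calls of these 6 genes held without each library in turn. Those of PDK4, PGM1, SLC2A10, LDHB, ERRFI1 and LOXL4, also among the genes with the smallest p in these lists, did not. The fall of PDK4 over both hairpins lost its call whichever library was left out.

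Astrocyte markers moved in the same comparisons. The 20 markers summed to 241 to 252 CPM with the hairpins, 295 and 293 CPM in the control coculture, against 250 and 246 CPM in control cells alone. Of 13 tested, 4 rose in the control coculture against control cells alone (30.8%, against 8.74% of all genes) and 4 fell over both hairpins (30.8%, against 5.85% of all genes). Over all 13, the median log2 change was 0.28 (range -0.34 to 0.89) in the control coculture against control cells alone. Over both hairpins against the control coculture the median was -0.22 (range -1.13 to 0.41). GLUL, at 162 to 199 CPM in a library and present in control cells alone, made up most of that sum. Of the 20, AQP4, GJB6, S100B and HEPACAM were at or below 0.169 CPM in every library. GFAP was at 16.5 and 16.9 CPM with hairpin 1 and 11.7 and 12.2 CPM with hairpin 2. It was at 13.8 and 12.8 CPM in the control coculture, and only 8.79 and 8.52 CPM in control cells alone. The summed microglia markers were at 1.23 to 1.69 CPM with the hairpins, 1.88 and 1.48 CPM in the control coculture and at 0.703 and 0.935 CPM in control cells alone, and the endothelial markers at 7.58 to 8.39, 10.0 and 9.55, and 8.23 and 6.28 CPM in the same order. VIM, an intermediate filament gene of mesenchymal cells that astrocytes also express, was at 1429 and 1547 CPM with hairpin 1, 1373 and 1355 CPM with hairpin 2, 2174 and 2094 CPM in the control coculture, against 1504 and 1317 CPM in control cells alone. It was the only 1 of the line's 6 markers called in either comparison: the log2 change was 0.60 in the control coculture against control cells alone (adjusted p = 0.00215) and -0.58 over both hairpins (adjusted p = 0.00155). The part of astrocyte reads in the changes of the 35 genes was not tested.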

How the data were processed

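The 8 libraries were of polysome-associated RNA purified by anti-GFP pull-down and made with a TruSeq RNA v2 kit, per the labels' protocols. TopHat2, HTSeq, DESeq2 and hg19 appear, with no version, in the list taken from the submitters' processing notes; annotation and strand setting are not given in the sources used here. The authors deposited whole-number counts per gene. Although the table is named as normalized, the deposited counts were treated as raw, because every integer from 1 to 60 occurred in each column and DESeq2 size factors ran from 0.889 to 1.13. Counter entries (27.1% to 37.4% of a library's reads) were left out.

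The test was edgeR's quasi-likelihood F-test (edgeR 4.0.16, R 4.3.3). TMM factors ran from 0.975 to 1.03. Genes averaging under 10 reads were dropped, and 1 fit held the 4 groups with 2 libraries each, at a common coefficient of variation of 7.66%. Benjamini-Hochberg adjustment ran over 15806 genes, with a threshold of 0.05 and 95% intervals from the same fit. P-values and intervals measure the spread between these libraries, which may be technical; the floor of 3 reads covers counting error only. The test was checked on simulated data, drawn with the spread estimated from these libraries and with changes set only in the control coculture. The hairpin comparisons were therefore not covered, and the outcome is not given here. Alternatives were DESeq2 1.42.0, other scaling, no filter, a replicate block, the compared groups only and each library left out. Members with a call get the value of each library; up to 4 genes with the smallest p could be named from each list of other pathway genes. The members, lists and tests were chosen with earlier results of these data known. Promoter windows came from RefSeq, and exon lengths, pseudogene names and opposite-strand exons from GENCODE 29.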

Additional observations from a re-analysis of the deposited data

How the results depend on the processing

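All 42 called values of the 35 genes kept their direction in all 588 recomputations, and 410 of these stayed past the threshold. DESeq2 size factors kept 42 of the 42 calls, DESeq2 41, no filter 41, library totals alone 31, the compared groups alone 30 and the replicate block 26. For the control coculture against control cells alone, the 9 higher calls ranged from 5 to 10 and the 0 lower calls from 0 to 1 without 1 library; lower calls were 1 with library totals and 2 without a filter. For hairpin 1 against the control coculture, the 7 lower calls were 4 with library totals, 11 without a filter, 4 with the block and 0 with the compared groups alone, and 1 to 9 without 1 library. The 1 higher call was 0 with the block and with the compared groups, and 0 to 1 without 1 library. For hairpin 2 the 3 lower calls were 1 with library totals, 1 with the block and 0 to 7 without 1 library. Over both hairpins the 8 lower calls were 5 with library totals, 5 with the block and 1 to 12 without 1 library, and the 1 higher call was 0 with the block, 0 with the compared groups and 0 to 2 without 1 library. Against control cells alone, the 7 lower calls of the depleted cocultures were 3 with the block and 0 to 9 without 1 library, and the 6 higher calls 2 to 9. Calls over all genes tested shifted as well without 1 library, and the cause of these shifts was not tested.

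Library totals alone gave 826 higher and 586 lower of all genes for hairpin 1, where TMM gave 488 and 748, and 786 and 699 for both hairpins, where TMM gave 533 and 924. All tested genes called numbered 1236 for hairpin 1, against 446 with the block, 236 with the compared groups and 2269 without a filter. They were 658 for hairpin 2 (319 with the block, 1191 without a filter), 1457 for both hairpins (700 with the block), 1844 for the control coculture (1160 with the block, 2805 without a filter), 2709 for depleted cocultures against control cells alone (1502 with the block, 4117 without a filter), and 5 between hairpins (22 with DESeq2, 2 with the compared groups, 304 without a filter, 0 with the block). Deviations of same-numbered libraries correlated at -0.385 to 0.199 across genes. With 2 libraries per group and correlations of mixed sign, these values cannot decide whether some libraries were paired. The labels name no shared batch, so the block is given here only.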
